A study of Homo sapiens with 12 samples.

Results

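Histone genes were followed through a transfection experiment in LNCaP cells, an androgen-sensitive line derived from a lymph node metastasis of prostate cancer. Members were taken by symbol, as every gene whose name begins with HIST1H to HIST4H, H1F, H2AF or H3F3, and 40 of the 13001 genes in the deposited table met that rule. Of these, 28 were named as HIST genes, the replication-dependent class, and 10 as variant genes. The other 2, the pseudogene H3F3AP4 and the antisense gene H1FX-AS1, were counted apart from both classes. HIST2H2BC and HIST2H2BD, which carry a pseudogene entry in the GENCODE v29 transcripts, stayed in the HIST class because the rule went by symbol.

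The cells received a plasmid for SRRM4, a neural splicing factor, for LSD1+8a, the isoform of the histone demethylase LSD1 (gene symbol KDM1A) that contains exon 8a, for LSD1, or an empty vector. Each group had 3 libraries. All cells were at passage 8 in RPMI 1640 with 10% serum, were transfected with Lipofectamine 2000 and had their medium replaced after 6 hours, so the empty vector cells carry the transfection as well. Every library came from polyadenylated RNA of 1 cell line after transient transfection, and the share of cells that took up a plasmid was not given in the sources used here. Nothing in the labels tells whether a group's 3 libraries came from separate cultures, so p-values measure only the spread between these libraries.

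Histones package DNA: H2A, H2B, H3 and H4 form the nucleosome core, and H1 binds the linker. Replication-dependent histone genes lie in clusters, are transcribed mainly in S phase and mostly make mRNAs that end in a conserved stem-loop in place of a poly(A) tail, bound by SLBP and trimmed with the help of the U7 particle. Variant genes lie outside the clusters, are mostly spliced and polyadenylated, and supply replacement histones through the cell cycle and in cells that no longer divide. Some replication-dependent genes also make polyadenylated transcripts that run past the stem-loop, and selection of polyadenylated RNA takes these up in preference.

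The stem-loop is shown because it was more frequent among HIST genes than among variant genes. A gene counted as holding it if any of its transcripts did. A 16-base match to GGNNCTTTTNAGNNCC, searched on the transcript strand of GENCODE v29 transcripts, was found in 22 of 28 HIST genes and in 1 of 10 variant genes, against 128 of 206694 transcripts overall (0.0619%). There were 6 forms of it, in which capitals mark the 6 bases of each stem arm and lower case the 4-base loop. The HIST genes that hold them lie on chromosomes 1 and 6, and H2AFX on chromosome 11.
HIST1H2AC, HIST2H2BE, HIST2H2AA4 and 8 further genes: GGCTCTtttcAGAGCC
HIST1H2AG, HIST2H2BC and HIST2H2BD: GGCTCTtttcAGGGCC
HIST1H2BC, HIST1H2BD and HIST1H2BF: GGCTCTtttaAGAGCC
HIST1H4E, HIST1H4H and HIST1H4J: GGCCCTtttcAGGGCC
HIST2H4A and HIST2H4B: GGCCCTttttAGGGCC
H2AFX, a variant gene: GGCCCTtttaAGGGCC
In 17 of the 22 HIST genes at least 1 annotated transcript continued for more than 100 bases past the stem-loop. HIST2H2BE continued for 1729 bases, HIST1H2AC for 1128 and HIST1H2AG for 1761, whereas HIST1H4J ended 6 bases after it. The annotated HIST1H2BK and HIST1H1C transcripts held no match in the GENCODE v29 set.

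Promoters of 24 HIST genes and 9 variant genes were found in RefSeq (GRCh38.p14, 250 bases before to 50 after the annotated start). The promoters of HIST1H2BK and HIST2H2BE, the H2B genes with the smallest p-values in SRRM4 cells, are printed from chr6:27146809-27147108 and chr1:149886633-149886932, both on the minus strand. Capitals mark the octamer ATTTGCAT, the CCAAT box and the TATA box TATAAA on either strand, and TATAAA matches on opposite strands can overlap each other.
HIST1H2BK: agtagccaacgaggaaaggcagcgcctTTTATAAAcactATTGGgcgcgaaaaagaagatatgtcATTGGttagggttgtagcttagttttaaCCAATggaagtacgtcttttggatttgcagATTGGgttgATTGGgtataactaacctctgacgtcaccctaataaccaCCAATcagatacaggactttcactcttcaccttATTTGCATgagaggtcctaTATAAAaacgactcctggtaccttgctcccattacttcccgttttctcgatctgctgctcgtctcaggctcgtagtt
HIST2H2BE: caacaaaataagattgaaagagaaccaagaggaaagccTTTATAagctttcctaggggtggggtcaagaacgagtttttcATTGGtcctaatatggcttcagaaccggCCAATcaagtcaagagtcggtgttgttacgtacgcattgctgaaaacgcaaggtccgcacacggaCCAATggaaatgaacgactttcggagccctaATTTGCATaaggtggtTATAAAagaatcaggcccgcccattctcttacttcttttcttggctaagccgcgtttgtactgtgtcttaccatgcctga
In both promoters the octamer began 46 bases before the start, with a TATA box 27 bases before it in HIST1H2BK and 30 bases before it in HIST2H2BE. The octamer stood in 8 of 24 HIST promoters (33.3%) and 1 of 9 variant promoters (11.1%), against 2.19% of all RefSeq genes. Of the 5 H2B promoters found, 3 held it (60.0%). CCAAT stood in 19 of 24 HIST promoters (79.2%) and 7 of 9 variant promoters (77.8%), against 39.7% of all genes. TATAAA stood in 15 of 24 HIST promoters (62.5%) and 4 of 9 variant promoters (44.4%), against 14.0% of all genes.

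Library totals over the 13001 genes were 10876293 to 11485489 counts in SRRM4 cells, 12110101 to 13359671 in LSD1+8a cells, 11658730 to 12565335 in LSD1 cells and 12750609 to 13570740 in empty vector cells. KDM1A was at 96.9, 92.0 and 100.06 CPM (the count as a share of the TMM-scaled library total) in SRRM4 cells, at 2608, 1983 and 2211 CPM in LSD1+8a cells, at 515, 587 and 519 CPM in LSD1 cells, and at 94.0, 95.2 and 93.7 CPM in empty vector cells. KDM1A was thus highest in both groups that received its plasmids, and the SRRM4 transcript itself is not analysed here. All 11 luminal prostate markers were listed and none of 3 leukocyte markers was. Of the other markers, 2 of 4 basal, 2 of 4 fibroblast and 1 of 3 endothelial markers were listed. The luminal markers summed to 7458 to 7537 CPM in SRRM4 cells and 8242 to 8436 CPM in empty vector cells, and the part of this difference in the histone values was not tested.

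Variant genes were the more abundant class by length-scaled level. Mean TPM (a length-scaled transcript share) over the 12 libraries ran from 36.3 for H2AFY2 to 759.7 for H3F3B among variant genes, with a median of 178 TPM. Among HIST genes it ran from 2.57 for HIST2H3A and HIST2H3C to 198 for HIST1H2BK, with a median of 15.2 TPM. The ranges overlapped: 7 of 28 HIST genes had a mean above H2AFY2, and 17 of 28 lay under 20 TPM.

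Of the variant genes, H3F3B and H3F3A, which both encode the replacement histone H3.3, averaged 759.7 and 488 TPM. H2AFZ, which encodes H2A.Z, averaged 552 TPM, and H2AFY, which encodes macroH2A1, averaged 304 TPM. H2AFX, whose product is phosphorylated at DNA breaks, averaged 182 TPM. These 5 were the highest variant genes, and no HIST gene reached the mean of H2AFY. The pseudogene H3F3AP4, counted apart, averaged 861 TPM, above H3F3B. All of its 50-base windows occurred in transcripts of H3F3A, so the split of reads between them is uncertain. The TPM of H3F3A, and the family and class sums that include it, carry this limit.

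The 5 highest HIST genes were HIST1H2BK (198 TPM), HIST2H2AA4 (171 TPM), HIST1H1C (102 TPM), HIST1H2AC (72.7 TPM) and HIST2H2BE (53.3 TPM), which encode an H2B, an H2A, the linker histone H1.2, an H2A and an H2B. They held 59.5% to 63.4% of the summed HIST TPM of a library. A list of 12 HIST genes known for polyadenylated transcripts had 9 measured members, and these held 70.6% to 74.0%. Libraries were made from polyadenylated RNA, so TPM of HIST genes here cannot be read as their total mRNA.

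**Figure D1:**
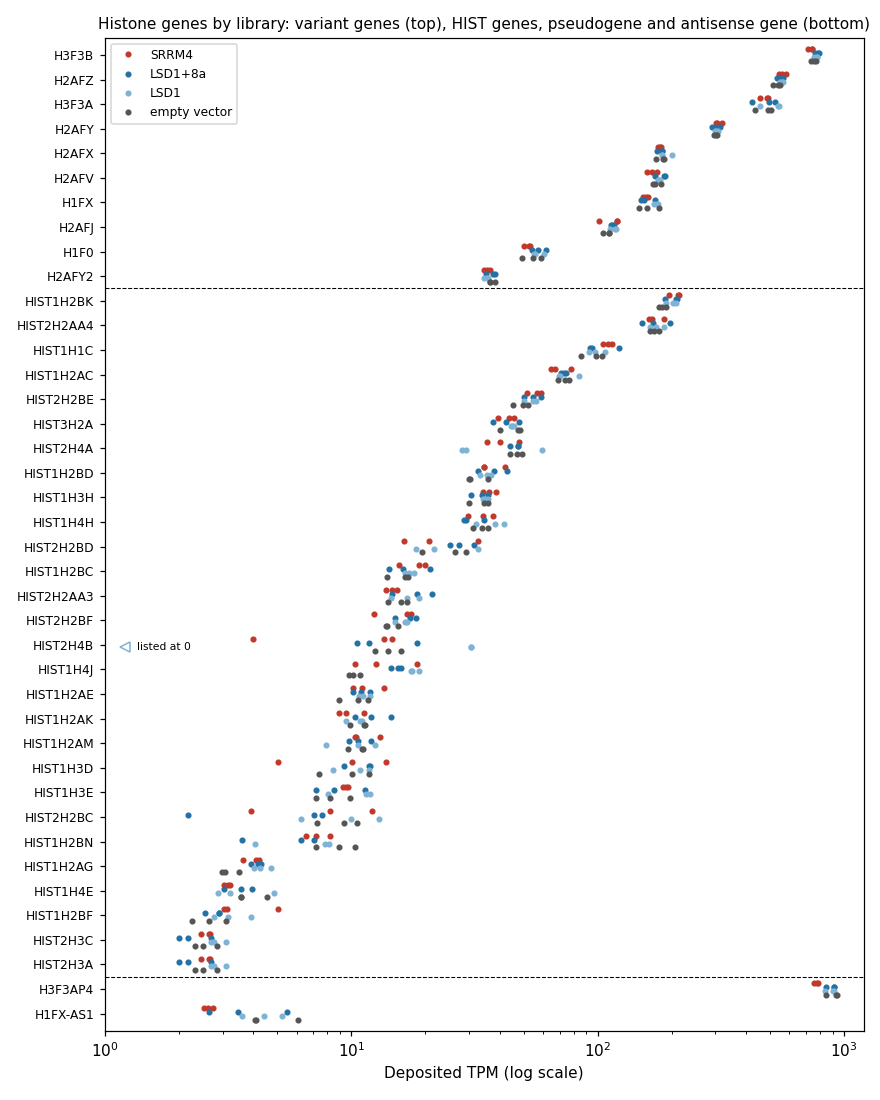
Deposited TPM (log axis) of each of the 40 histone genes, with 1 point a library coloured by group; the open triangle is HIST2H4B in 1 LSD1 library, listed at 0. Variant genes lie between 36.3 and 759.7 mean TPM, while 17 of 28 HIST genes lie under 20 TPM.

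By histone family, H2B was carried by 9 HIST genes with a median of 357 summed TPM and H4 by 5 HIST genes with 110 summed TPM. The symbol rule could take no variant gene of H2B or H4, so their absence here is no result. H2A had 8 HIST genes at a median of 340 summed TPM and 6 variant genes at 1356. H3 had 5 HIST genes at 59.0 summed TPM and 2 variant genes at 1248, and H1 had 1 HIST gene at 101 and 2 variant genes at 213. Of the HIST genes 17 were in the HIST1 cluster, 10 in HIST2, 1 in HIST3 and 0 in HIST4.

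HIST genes had lower counts and wider errors than variant genes. Mean counts per library were 26.5 to 1189 for HIST genes, with 11 of 28 under 50, and 625.8 to 4663 for variant genes. The standard error of the log2 fold change over the 5 comparisons had a median of 0.18 for HIST genes and 0.05 for variant genes, and was widest for HIST2H4B, at up to 0.98, with a mean of 197 counts. The median coefficient of variation of CPM in a group was 8.16% in SRRM4, 12.7% in LSD1+8a, 7.40% in LSD1 and 8.29% in empty vector cells for HIST genes, and 2.47%, 3.21%, 2.43% and 3.76% in the same groups for variant genes.

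Summed over each class, levels lay close together in the 4 groups. The 28 HIST genes summed to 984 ± 48.0 TPM in SRRM4, 985 ± 59.2 TPM in LSD1+8a, 991 ± 43.8 TPM in LSD1 and 940 ± 25.6 TPM in empty vector cells (SD, n = 3 each). The 10 variant genes summed to 2784 ± 49.9 TPM in SRRM4, 2847 ± 58.4 TPM in LSD1+8a, 2897 ± 71.5 TPM in LSD1 and 2783 ± 58.0 TPM in empty vector cells. The HIST sum was 35.3% ± 1.17 of the variant sum in SRRM4, 34.6% ± 2.80 in LSD1+8a, 34.2% ± 1.06 in LSD1 and 33.8% ± 0.912 in empty vector cells. Library ranges of both sums overlapped between all groups, narrowly for the variant sum in LSD1 (2818.8 to 2959.2 TPM) and empty vector cells (2716.4 to 2818.9 TPM). The HIST share of the variant sum ran from 34.5% to 36.7% in SRRM4 and from 32.7% to 34.4% in empty vector cells, without overlap. All other group ranges of this share overlapped, and no test was made on a sum over members.

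**Figure D2:**
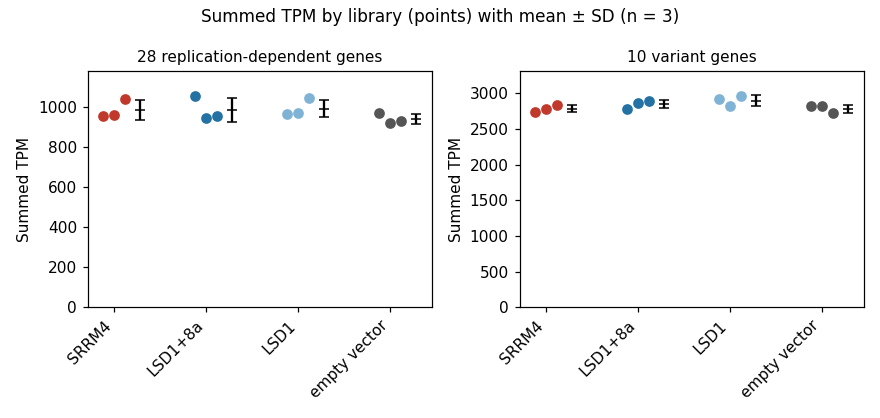
Summed deposited TPM of the 28 replication-dependent genes (left) and the 10 variant genes (right) in each library (points), with the mean and SD of each group (n = 3) beside them. Group means lie between 940 and 991 TPM for HIST genes and between 2783 and 2897 TPM for variant genes.

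The comparison of SRRM4 with empty vector cells asked which histone genes moved when the splicing factor was introduced. Of 40 histone genes, 1 rose and 1 fell at an adjusted p under 0.05 in edgeR's quasi-likelihood test with Benjamini-Hochberg adjustment over all genes (5.0%, against 7.68% of all genes, of which 4.47% rose and 3.22% fell). The gene that rose was HIST1H2BK, an H2B gene, and the one that fell was H3F3AP4, a pseudogene of the H3.3 gene. An unadjusted p under 0.05 was found for 8 of 40, against 20.8% of all genes. In bulk RNA, fewer cells that carry a transcript and less of it per cell cannot be told apart.

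HIST1H2BK was at 99.0, 104 and 108 CPM in SRRM4 cells and at 93.2, 88.4 and 91.0 CPM in empty vector cells. Every SRRM4 library lay above every empty vector library. Means were 104 ± 4.55 CPM in SRRM4 cells and 90.9 ± 2.41 CPM in empty vector cells (SD, n = 3 each), a log2 fold change of 0.19 (SE 0.05, adjusted p = 0.00665, edgeR). The call was lost without SRRM4 replicate 3 (log2 fold change 0.16, adjusted p = 0.0664, edgeR) and on log2(TPM + 1) with limma-trend (0.18, adjusted p = 0.118). Of its 50-base windows 11.7% occurred in another histone gene.

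The other H2B genes did not pass in the model of all 4 groups. HIST2H2BE was at 82.5, 92.3 and 94.0 CPM in SRRM4 cells and at 80.2, 74.0 and 84.3 CPM in empty vector cells, so the groups overlapped (log2 fold change 0.17, SE 0.06, adjusted p = 0.106, edgeR). HIST2H2BE was called when only these 2 groups were fitted, and without SRRM4 replicate 1. HIST1H2BF, at a mean of 3.01 CPM in SRRM4 cells and 2.16 CPM in empty vector cells, had a log2 fold change of 0.47 (SE 0.22, adjusted p = 0.221, edgeR). The 9 H2B genes had a median log2 fold change of 0.13, with 6 above 0.

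Among H2A and H1 genes the model of all 4 groups made no call. HIST1H2AG was at 6.77, 5.97 and 6.59 CPM in SRRM4 cells and at 5.68, 4.92 and 5.02 CPM in empty vector cells. These libraries did not overlap, yet the gene missed the threshold (log2 fold change 0.31, SE 0.14, adjusted p = 0.191, edgeR). HIST1H1C was at 48.7, 47.6 and 50.4 CPM in SRRM4 cells and at 45.9, 38.3 and 43.8 CPM in empty vector cells, again without overlap (0.20, SE 0.10, adjusted p = 0.285, edgeR), and was called when only these 2 groups were fitted. HIST1H2AC (log2 fold change 0.07) and HIST2H2AA4 (0.02), the H2A genes among the 5 highest HIST genes, differed by about their standard errors of 0.06 and 0.08 or less.

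Over the HIST class, 18 of 28 log2 fold changes of SRRM4 against empty vector cells lay above 0, with a median of 0.09, against a median of -0.0011 over all genes, of which 49.6% lay above 0. The median was 0.03 without SRRM4 replicate 3 and 0.06 without EV replicate 2. Near-identical copies enter these counts as separate genes, among them HIST2H3A and HIST2H3C with identical counts. With copies summed, an alternative chosen after seeing the data, the HIST median was 0.12. Libraries did not overlap for 3 of 28 on the higher side (10.7%), against 13.0% of all genes, and for 1 of 28 on the lower side, against 12.3% of all genes. The 9 measured genes of the polyadenylated list had a median of 0.12, with 1 called.

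With H3F3AP4 counted apart, the variant genes stayed within 0.10 log2 units of the empty vector level in SRRM4 cells. Their log2 fold changes ran from -0.10 to 0.07 with a median of -0.02, 3 of 10 above 0, and 0 were called in edgeR, with 2 at an unadjusted p under 0.05. H2AFV, which encodes the H2A.Z paralogue H2A.Z.2, was at 109.98, 112 and 120.5 CPM in SRRM4 cells and at 118, 123 and 125 CPM in empty vector cells (log2 fold change -0.10, SE 0.04, adjusted p = 0.136, edgeR). H2AFZ was at 357, 353 and 370.4 CPM in SRRM4 cells and at 345, 335 and 352 CPM in empty vector cells (0.07, SE 0.03, adjusted p = 0.218). H2AFZ libraries did not overlap and those of H2AFV did. H2AFY averaged 377 ± 7.15 CPM in SRRM4 cells and 365 CPM in empty vector cells (0.05, adjusted p = 0.385, edgeR). With the counts of H3F3AP4 added to H3F3A, that summed entry was called lower (-0.13, adjusted p = 0.00961, edgeR on summed copies). The variant median was then -0.04, so the absence of variant calls depends on how H3F3AP4 is counted.

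**Figure D3:**
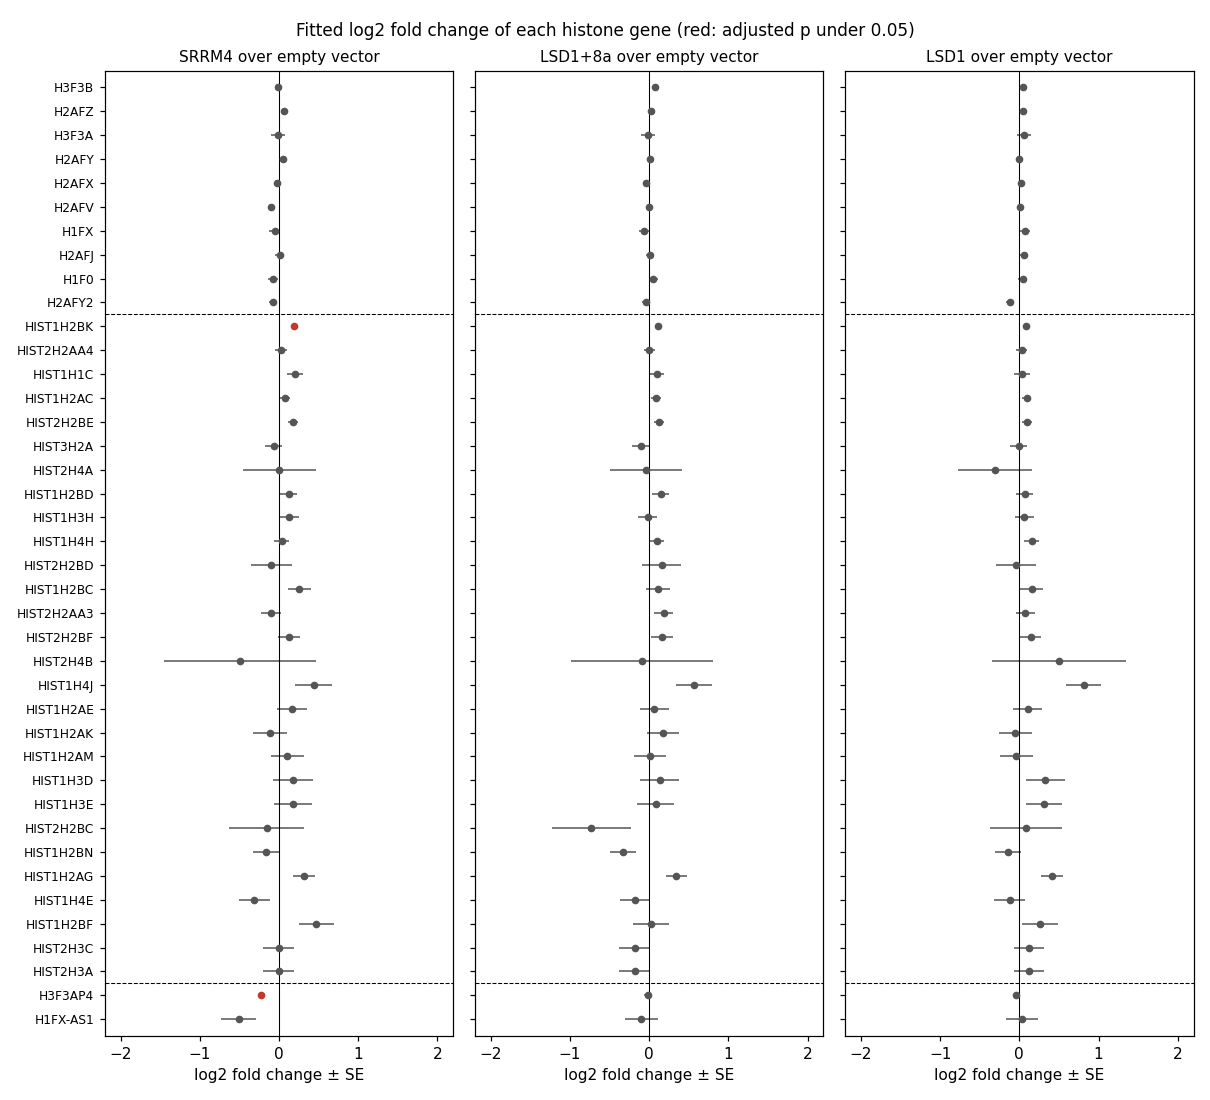
Fitted log2 fold change of each histone gene (points) with its standard error (bars) in SRRM4, LSD1+8a and LSD1 cells, each over empty vector cells; red marks an adjusted p under 0.05. HIST1H2BK (0.19) and H3F3AP4 (-0.23) are the only marked genes, both in SRRM4 cells, and the 3 panels share the empty vector libraries.

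H3F3AP4 was at 257, 256 and 260.1 CPM in SRRM4 cells and at 283, 314 and 311 CPM in empty vector cells. All SRRM4 libraries lay below all empty vector libraries, with a log2 fold change of -0.23 (SE 0.04, adjusted p = 0.000274, edgeR). All 362 of its 50-base windows occurred in transcripts of H3F3A, so the split of reads between them is uncertain. H3F3A itself had a log2 fold change of -0.02 (SE 0.09, adjusted p = 0.951, edgeR). Added together, they came to 529 ± 11.1 CPM in SRRM4 cells and 578 ± 15.3 CPM in empty vector cells (log2 fold change -0.13, SE 0.03, adjusted p = 0.00961, edgeR on summed copies, an alternative chosen after seeing the data). H3F3B, the other H3.3 gene, had a log2 fold change of -0.02 (adjusted p = 0.811, edgeR).

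H1FX-AS1, which runs antisense to the linker histone gene H1FX, was at 2.17, 1.75 and 1.92 CPM in SRRM4 cells and at 3.08, 3.06 and 2.21 CPM in empty vector cells. The groups did not overlap, and the gene missed the threshold (log2 fold change -0.51, SE 0.22, adjusted p = 0.169, edgeR). Whether counting used strand was not given in the sources used here, so reads of H1FX and H1FX-AS1 may not have been told apart.

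Near-identical copies limited what single HIST genes could show. Of the HIST genes 18 of 28 shared at least 1 window of 50 bases with another histone gene, against 2 of 10 variant genes. HIST2H3A and HIST2H3C shared all windows and had identical counts in all 12 libraries. HIST2H2AA3 shared 100% of its windows with HIST2H2AA4, and 97.1% of those of HIST2H2AA4 were shared in turn.

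HIST2H4A and HIST2H4B, which encode the same H4 protein, shared 97.5% and 97.2% of their windows. HIST2H4B took 36.7%, 39.3% and 5.76% of the counts of the pair in SRRM4 cells, 30.0%, 39.2% and 31.8% in LSD1+8a cells, 0 of 592 counts, 73.9% and 73.3% in LSD1 cells, and 35.4%, 35.5% and 32.9% in empty vector cells. A count of 0 in 592 allows a share of up to 0.507%, for counting error only. The split thus moved between libraries of 1 group, most in LSD1 cells, while the summed pair ranged from 40.4 to 47.7 CPM over the 12 libraries. The pair summed to 41.1 ± 0.614 CPM in SRRM4, 43.8 ± 2.45 CPM in LSD1+8a, 46.5 ± 0.743 CPM in LSD1 and 45.7 ± 2.0 CPM in empty vector cells (SD, n = 3 each). For SRRM4 against empty vector cells the summed pair had a log2 fold change of -0.15 (SE 0.06, adjusted p = 0.0946, edgeR).

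**Figure D4:**
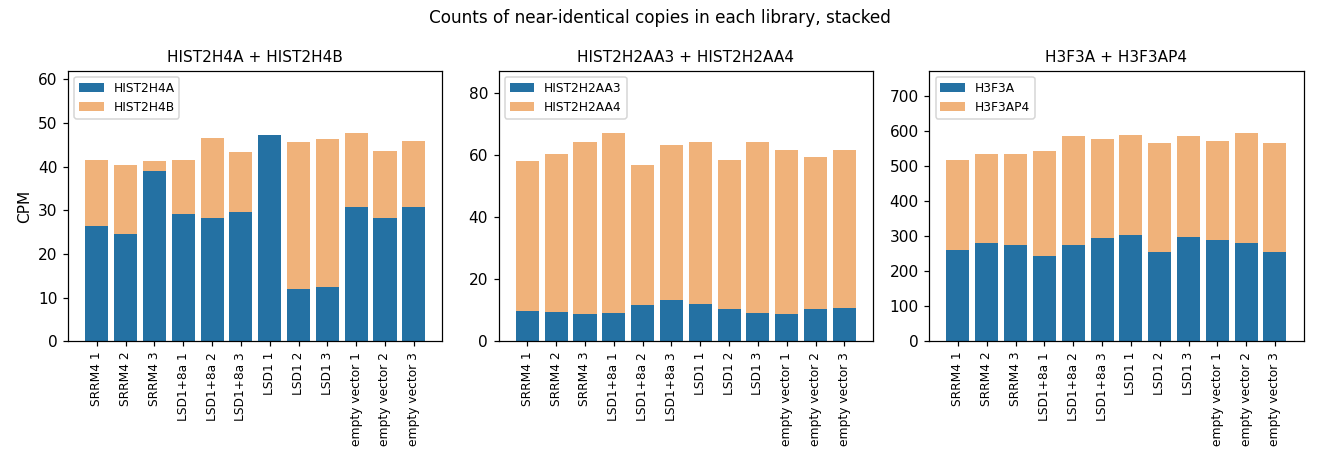
CPM of HIST2H4A with HIST2H4B, HIST2H2AA3 with HIST2H2AA4, and H3F3A with its pseudogene H3F3AP4 in each of the 12 libraries, stacked so that the bar height is the sum of the pair. The HIST2H4B share runs from 0 to 73.9% while the summed pair stays near 40.4 to 47.7 CPM, and the H3F3A and H3F3AP4 sum is lowest in the SRRM4 libraries.

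The comparison of LSD1+8a with empty vector cells asked about the isoform with exon 8a. None of 40 histone genes passed: edgeR, DESeq2 and limma-voom each called 0, against 0.346% of all genes called by edgeR, and 4 of 40 (10.0%) had an unadjusted p under 0.05, against 6.82% of all genes. HIST genes had a median log2 fold change of 0.08 with 19 of 28 above 0, and variant genes 0.0007 with 5 of 10 above 0, against 0.0009 over all genes. The HIST median was 0.03 without EV replicate 2, 0.03 without LSD1+8a replicate 1 and 0.05 without LSD1+8a replicate 3. HIST libraries did not overlap on the higher side for 3 of 28 (10.7%), against 6.12% of all genes. HIST1H2BN, an H2B gene, was lower in every LSD1+8a library than in any empty vector library. Its log2 fold change was -0.34 (SE 0.17, unadjusted p = 0.0505, adjusted p = 0.729, edgeR).

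The smallest p-values in LSD1+8a cells belonged to HIST1H2BK, HIST1H2AG and HIST1H4J. HIST1H2BK was at 103, 98.3 and 94.0 CPM in LSD1+8a cells, against the empty vector values above (log2 fold change 0.12, SE 0.05, adjusted p = 0.584, edgeR). HIST1H2AG was at 6.89, 6.66 and 6.23 CPM in LSD1+8a cells (0.34, SE 0.14, adjusted p = 0.584). HIST1H4J, an H4 gene with 19 to 37 counts a library, was at 2.32, 2.62 and 2.54 CPM in LSD1+8a cells and at 1.58, 1.79 and 1.67 CPM in empty vector cells (0.56, SE 0.22, adjusted p = 0.584). In each of these genes all LSD1+8a libraries lay above all empty vector libraries. Among variant genes, H3F3B had the smallest p (log2 fold change 0.07, SE 0.03, adjusted p = 0.633, edgeR).

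The comparison of LSD1 with empty vector cells, which asked about LSD1 without the exon, gave 0 calls among histone genes in edgeR, DESeq2 and limma-voom, against 0.1% of all genes in edgeR. Genes without an adjusted p in DESeq2 counted as not called. The authors' deposited comparison gave no adjusted p for 35 of 40 histone genes, so the DESeq2 result may rest on few of them. An unadjusted p under 0.05 was found for 3 of 40 (7.5%), against 5.89% of all genes. HIST genes had a median log2 fold change of 0.09 with 21 of 28 above 0, and variant genes 0.04 with 8 of 10 above 0, against 0.0019 over all genes, of which 51.1% lay above 0. With libraries left out, the HIST median ran from 0.06 to 0.11 and the variant median from 0.0086 (without EV replicate 3) to 0.05. HIST libraries did not overlap on the higher side for 4 of 28 (14.3%), against 5.48% of all genes.

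HIST1H4J was at 2.95, 3.07 and 2.87 CPM in LSD1 cells, above every empty vector library, with the widest change of any HIST gene in this comparison (log2 fold change 0.81, SE 0.22, unadjusted p = 0.000769, adjusted p = 0.333, edgeR). In SRRM4 cells it was at 2.08, 1.75 and 3.02 CPM and overlapped empty vector cells (0.44, adjusted p = 0.290, edgeR). HIST1H2AG was at 6.54, 6.73 and 7.51 CPM in LSD1 cells (0.41, SE 0.14, adjusted p = 0.609, edgeR), so the libraries of all 3 plasmid groups lay above its empty vector libraries. The 3 comparisons share those empty vector libraries and are not independent. H2AFY2, which encodes macroH2A2, was at 49.0, 48.0 and 49.96 CPM in LSD1 cells and at 52.2, 55.0 and 52.4 CPM in empty vector cells (-0.12, SE 0.05, adjusted p = 0.775, edgeR).

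**Figure D5:**
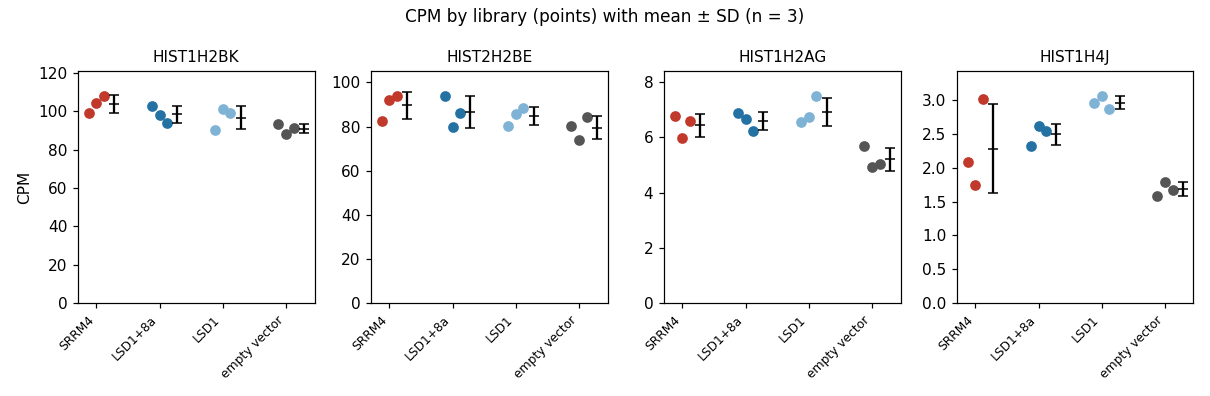
CPM of HIST1H2BK, HIST2H2BE, HIST1H2AG and HIST1H4J in each library (points), with the mean and SD of each group (n = 3) beside them. HIST1H2AG libraries of all 3 plasmid groups lie above the empty vector libraries, and HIST1H4J spreads from 1.75 to 3.02 CPM among SRRM4 libraries.

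LSD1+8a set against LSD1, the comparison of the exon itself, gave 0 calls among 40 histone genes in edgeR, DESeq2 and limma-voom, against 0.323% of all genes in edgeR, and 0 had an unadjusted p under 0.05, against 6.21% of all genes. KDM1A was higher in LSD1+8a cells than in LSD1 cells, so its level and the exon cannot be told apart here. The median log2 fold change was -0.05 for HIST genes, with 10 of 28 above 0, and -0.02 for variant genes, with 4 of 10 above 0. H1FX, a linker histone gene, was at 159, 155 and 175 CPM in LSD1+8a cells and at 184, 174 and 179 CPM in LSD1 cells (-0.13, SE 0.06, adjusted p = 0.807, edgeR). Other small p-values were those of H2AFX (-0.07), H2AFY2 (0.08), the pair HIST2H3A and HIST2H3C (-0.30 each, SE 0.19) and HIST2H2BC (-0.81, SE 0.50), with adjusted p from 0.844 to 0.881 in edgeR. Summed, HIST2H3A and HIST2H3C were at -0.30 with a narrower SE of 0.15 (unadjusted p = 0.0468, adjusted p = 0.793, edgeR on summed copies).

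SRRM4 set against LSD1+8a called 1 of 40 histone genes (2.5%, against 7.58% of all genes in edgeR, 3.17% on the lower side), and 4 of 40 (10.0%) had an unadjusted p under 0.05, against 21.2% of all genes. The call was H3F3AP4, at the SRRM4 values above and at 301, 311 and 283 CPM in LSD1+8a cells (log2 fold change -0.21, SE 0.04, adjusted p = 0.00105, edgeR). Its sum with H3F3A also fell (-0.10, adjusted p = 0.0370, edgeR). H3F3B was at 371, 369 and 369.6 CPM in SRRM4 cells and at 381, 402 and 395 CPM in LSD1+8a cells, without overlap (-0.09, SE 0.03, adjusted p = 0.0735, edgeR). H3F3B was called with upper-quartile factors, and without LSD1+8a replicate 1, where HIST1H1C and HIST2H2AA3 were called too. H2AFV (-0.10), HIST2H2AA3 (-0.29), H1F0 (-0.13), which encodes the replacement linker histone H1.0, and HIST1H2BF (0.45) had adjusted p of 0.149, 0.181, 0.236 and 0.250. Summed with its copy HIST2H2AA4, HIST2H2AA3 was at -0.03 (SE 0.06, adjusted p = 0.783, edgeR on summed copies). Medians were 0.04 for HIST genes and 6.1e-05 for variant genes, and the SRRM4 libraries are those of the comparison with empty vector cells.

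Genes that act on histone mRNA and histones were counted in the same fits. In SRRM4 against empty vector cells, 2 of 23 measured genes of histone mRNA 3′ processing and decay rose and none fell, against 4.47% of all genes that rose and 3.22% that fell: LSM10, a subunit of the U7 particle (log2 fold change 0.21, adjusted p = 0.0216, edgeR), and SNRPB, a shared Sm protein (0.14, adjusted p = 0.0102). SLBP did not pass (-0.04, adjusted p = 0.680). Of 13 genes of histone gene transcription 1 rose, against 4.47% of all genes, the zinc finger factor YY1 (0.15, adjusted p = 0.0164), while NPAT, the coactivator of histone genes, was at 0.0030 (adjusted p = 0.990).

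Of 29 histone chaperone and deposition genes 2 fell in SRRM4 cells and none rose, against 3.22% of all genes that fell and 4.47% that rose: ANP32E, a chaperone that removes H2A.Z (22.8 ± 1.33 CPM in SRRM4 cells and 28.3 ± 1.28 CPM in empty vector cells, log2 fold change -0.31, adjusted p = 0.00541, edgeR), and CHAF1A, the large subunit of the replication-coupled chaperone CAF-1 (-0.17, adjusted p = 0.0262). Of 44 genes of DNA replication and S phase 3 fell and none rose, against the same shares of all genes, namely UNG, a uracil glycosylase (-0.17, adjusted p = 0.0114), and RRM1 and RRM2, the ribonucleotide reductase subunits (-0.13 each, adjusted p = 0.0174 and 0.0410, edgeR). The median log2 fold change was -0.04 for the S phase list and -0.03 for the chaperone list, against -0.0011 over all genes. In LSD1+8a and LSD1 against empty vector cells, and in LSD1+8a against LSD1 cells, edgeR called 0 genes in each of these 4 lists, against 0.346%, 0.1% and 0.323% of all genes. In SRRM4 against LSD1+8a cells, 1 of 23 processing genes and 1 of 13 transcription genes rose. Of 29 chaperone genes 1 rose and 2 fell there, and of 44 S phase genes 3 fell, against 7.58% of all genes called in either direction.

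The authors' deposited table of comparisons had the same outcome for histone genes. It gave an adjusted p under 0.05 for 2 of 40 in SRRM4 against empty vector cells, HIST1H2BK and H3F3AP4, and for 0 of 40 in LSD1+8a and in LSD1 against empty vector cells, where 35 of 40 LSD1 values were not given.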

How the data were processed

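Counts per gene, TPM and a table of comparisons were deposited for 12 libraries. STAR 2.5.3a, RSEM 1.2.31 and hg19 are named, with no roles, per the submitters' processing notes. The deposited counts were whole numbers, per the file headers and values, and were used as given. Deposited TPM, scaled by the authors for transcript length and library size, were used for levels between genes. The authors' log2 fold changes and p-values in the deposited comparison table were used only where named.

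Counts were fitted in edgeR 4.0.16 (R 4.3.3; TMM, filterByExpr, quasi-likelihood F tests, robust option), with 3 libraries a group and the 4 groups sharing 1 model; all 13001 genes passed the filter. A call needed p under 0.05 after Benjamini-Hochberg adjustment across the whole table, in each of 5 comparisons. SE are the log2 fold change divided by the square root of F. The biological coefficient of variation was 2.98%. Code was tested on simulated data. Alternatives used DESeq2 1.42.0, limma 3.58.1 (voom, and trend on log2(TPM + 1) or log2(TPM + 0.1)), other factors and filters, and fewer libraries. Replicate numbers did not pair libraries (same-number deviations correlated at -0.23 to 0.09 over 10597 genes), so no block was used.

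Named were genes called in any comparison, the 5 highest by TPM of each class and the 3 smallest p per class and comparison. Further genes were named to show copies or libraries that did not overlap. Of the accompanying lists, genes called in SRRM4 against empty vector cells were named, and SLBP and NPAT after their values were seen. The members and lists were chosen with earlier results of these data known. Sequences came from GENCODE v29 and RefSeq GRCh38.p14, matched by symbol or gene ID (RefSeq genes for 37 of 40, promoters for 33 of 40); no hg19 coordinates were used.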

Additional observations from a re-analysis of the deposited data

How the results depend on the processing

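Histone genes called in SRRM4 against empty vector cells numbered 2, and 1 to 3 with each library left out in turn, the 1 without SRRM4 replicate 3. They numbered 1 on log2(TPM + 1) and 1 on log2(TPM + 0.1) with limma-trend, and 4 with only the 2 groups compared (HIST1H1C and HIST2H2BE added). In SRRM4 against LSD1+8a cells 1 was called, 2 with upper-quartile factors (H3F3B added), and 1 to 4 with libraries left out, the 4 without LSD1+8a replicate 1. In the other 3 comparisons 0 were called under all 17 alternatives, where genes without a DESeq2 adjusted p counted as not called. HIST1H2BK ran from 0.16 to 0.22 (adjusted p 0.00463 to 0.118) and H3F3AP4 from -0.28 to -0.21 (adjusted p 9.71e-06 to 0.017) in SRRM4 against empty vector cells.

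With libraries left out, the variant median ran from -0.066 (without EV replicate 3) to 3.1e-06 in SRRM4 against empty vector cells and from -0.033 (without SRRM4 replicate 2) to 0.014 in SRRM4 against LSD1+8a cells, and the HIST median from -0.085 to 0.0084 (without LSD1+8a replicate 2) in LSD1+8a against LSD1 cells. The HIST median ran from 0.03 to 0.12 in SRRM4 and from 0.03 to 0.12 in LSD1+8a against empty vector cells, and crossed 0 in SRRM4 against LSD1+8a cells (-0.02 to 0.08). On log2(TPM + 1) the HIST median in SRRM4 against empty vector cells was 0.02. Where not given, the cause was not tested. With a replicate block 2 histone genes were called in SRRM4 against empty vector cells (HIST1H2BK adjusted p = 0.0119) and no call changed. Counts under 50 a library limit 11 of 28 HIST genes.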
